A study of Mus musculus with 6 samples.

Results

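The 35 genes described here copy DNA or prepare the cell for S phase, the stretch of the cell cycle in which the genome is duplicated. They were chosen as a list of names, with no threshold on a measured value, and all 35 were found among the 39470 loci of the deposited count table. RNA came from pancreatic islets of C57BL/6 mice aged 14 weeks, after 8 weeks of feeding, with 3 libraries from normal feeding and 3 from high fat feeding. C57BL/6 is an inbred strain and was the strain of all 6 libraries. Islets are clusters of endocrine cells, mostly insulin-secreting beta cells. The study set out to find coding and long non-coding transcripts whose islet levels differ in mice made obese by diet. The labels do not say whether a library came from 1 animal or from pooled animals, so the tests weigh a diet difference against the scatter among 3 libraries, some of which may be technical.

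Libraries held from 104657337 to 135353777 counted reads. All values below are CPM, which are counts relative to the size of the library after TMM scaling, a factor per library chosen so that most genes do not differ. The high fat columns carry the abbreviation HDR, which was read as the high fat diet because the other columns are named ND, so the direction of every difference rests on that reading. High fat library 3 stood apart from high fat libraries 1 and 2 on the second principal component of all tested loci, at 59.4 against -32.3 and -25.5, and results are therefore also given without it. The islet label was met by the levels of Iapp, the gene of the beta-cell peptide amylin, at 35729 ± 803 CPM (SD, n = 3) on the normal diet, and of Gcg, the alpha-cell glucagon gene, at 23097 ± 1181 CPM. The replication genes are measured against that background in whole islets, where fewer dividing cells and less RNA per dividing cell cannot be told apart.

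A cell licenses its origins of replication in G1, when the origin recognition complex, CDC6 and CDT1 load the ring of MCM2 to MCM7 around DNA. In S phase the ring is joined by CDC45 and the GINS complex and becomes the helicase that opens the fork, and polymerases, the sliding clamp PCNA, nucleotide synthesis and histone chaperones follow. E2F transcription factors, held in check by the RB family until cyclin-dependent kinases act, drive most of these genes together. Adult beta cells divide rarely, and in mice on a high fat diet their replication is known to increase.

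Promoters are shown first because E2F sites are the sequence feature for which this gene group is known. RefSeq promoters (build GRCm38.p6, 250 bases before to 50 after the start) were given for 29 of the 35 genes, as 35 promoters in all, and not for Ccne2, Gins1, Gins2, Gmnn, Mcm4 and Pole. Both strands were searched for 4 E2F words, TTTGGCGC, TTTCGCGC, TTTCCCGC and TTTGCCGC. At least 1 of these words stood in 12 of the 35 promoters (34.3%), against 744 of 32851 promoters in the table (2.26%). The 12 belonged to Cdc6, Cdt1, E2f2, E2f7, Lig1, Mcm3, Mcm5, Mcm6, Mcm7, Pola1, Rfc3 and Uhrf1. CCAAT, the word bound by NF-Y, stood on either strand in 21 of the 35 (60.0%), against 37.4% of all promoters. TTTGAA, the cell cycle homology word found in many mitotic promoters, stood in 5 of the 35 (14.3%), against 17.9%. A match describes the letters of these windows and is not evidence of binding in islets.

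In the stretches of 80 bases below, all upstream of the start, capitals mark E2F words in the first 6 genes and CCAAT in Rrm1 and Rrm2, the pair of genes that rose in the test that follows. In Mcm5 and in the first site of Mcm6, an E2F word on each strand overlap in 1 run of 12 bases. The windows lie at chr8:75109322-75109401, plus strand for Mcm5, chr1:128359741-128359820, minus strand for Mcm6, chr11:98907977-98908056, plus strand for Cdc6 and chrX:93632250-93632329, minus strand for Pola1. Those of the others are chr17:56304092-56304171, plus strand for Uhrf1, chr10:110745205-110745284, plus strand for E2f7, chr7:102441589-102441668, plus strand for Rrm1 and chr12:24708166-24708245, plus strand for Rrm2.
Mcm5: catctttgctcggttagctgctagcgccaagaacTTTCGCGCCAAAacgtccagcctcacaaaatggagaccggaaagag
Mcm6: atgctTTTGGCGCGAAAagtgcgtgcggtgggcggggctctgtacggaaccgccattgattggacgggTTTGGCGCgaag
Cdc6: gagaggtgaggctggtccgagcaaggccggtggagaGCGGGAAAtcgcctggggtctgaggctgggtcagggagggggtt
Pola1: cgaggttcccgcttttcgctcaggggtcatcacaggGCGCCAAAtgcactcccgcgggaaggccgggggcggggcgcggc
Uhrf1: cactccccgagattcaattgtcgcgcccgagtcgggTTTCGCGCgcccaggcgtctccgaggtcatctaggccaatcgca
E2f7: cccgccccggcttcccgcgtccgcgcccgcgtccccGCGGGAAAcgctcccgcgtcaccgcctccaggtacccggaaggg
Rrm1: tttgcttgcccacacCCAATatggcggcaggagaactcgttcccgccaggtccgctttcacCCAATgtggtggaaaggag
Rrm2: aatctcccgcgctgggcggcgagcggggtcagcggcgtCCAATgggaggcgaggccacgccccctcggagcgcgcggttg
Neither Rrm1 nor Rrm2 held an E2F word in its window of 300 bases.

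Between the diets, 2 of the 35 genes rose in high fat islets, Rrm1 and Rrm2, and the locus of Gins2 fell, at a threshold of 0.05 on the Benjamini-Hochberg adjusted p of edgeR (quasi-likelihood fit, 23983 loci). That is 5.71% of the genes higher, near the 5.95% of all loci called higher, 4.86% called lower and 10.8% called in either direction, so the count says nothing about the group. All 35 passed the filter on low counts, and the lowest count of any of them in any library was 29. The fitted log2 fold change, high fat over normal diet, was above 0 for 33 of the 35, against 45.5% of all loci tested, and for 26 of the 35 when libraries were scaled by their totals only, where Mcm7, Pcna, Tk1, Rfc3, Rfc5, Chaf1a and Fen1 turned below 0. Its median was 0.29, against -0.05 over all loci, and the values ran from -0.90 to 0.93. High fat and normal diet libraries did not overlap for 9 genes that were higher (25.7%) and 2 that were lower, where 18.8% and 20.4% of all loci showed no overlap in these directions.

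**Figure D1:**
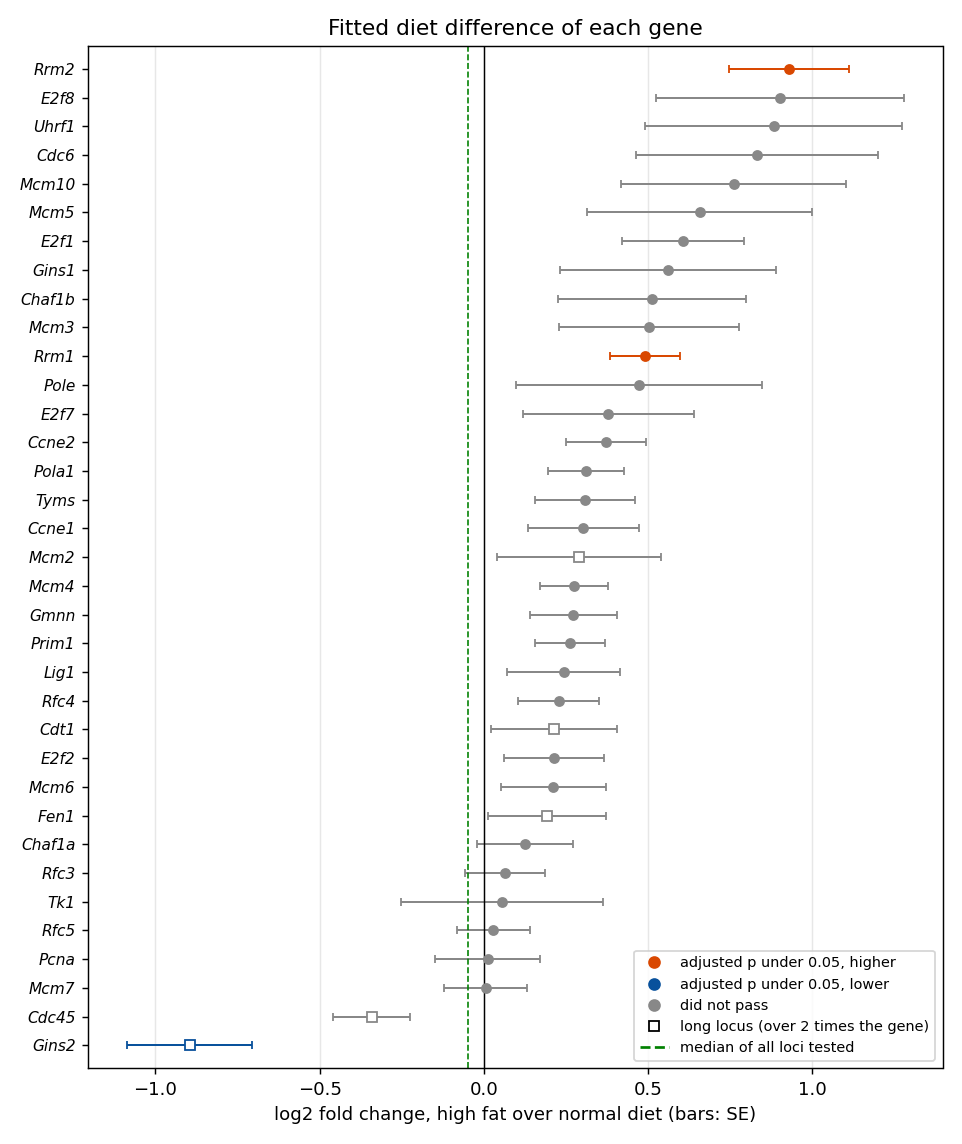
Fitted log2 fold change of each of the 35 genes (high fat over normal diet, x axis, bars are SE, n = 3 libraries per diet), ordered by size, with loci longer than 2 times the gene as open squares and the median of all loci as a dashed line. Rrm2 at 0.93 and Rrm1 at 0.49 passed the test upward and the Gins2 locus at -0.90 downward, while several genes with values nearly as large as that of Rrm2, such as E2f8, Uhrf1 and Cdc6, have wide bars and did not pass.

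Ribonucleotide reductase, the enzyme that turns ribonucleotides into the deoxyribonucleotides of DNA, is built from the large subunit RRM1 and, in S phase, the small subunit RRM2. Rrm2 (chromosome 12, 25393119 to 25399011, plus strand of mm9) stood at 4.13, 4.88 and 5.50 CPM in normal diet libraries 1, 2 and 3, and at 8.85, 11.3 and 7.50 CPM in high fat libraries 1, 2 and 3. The lowest high fat library lay above the highest normal diet library. Means were 4.83 ± 0.69 and 9.22 ± 1.9 CPM (SD, n = 3), and the fitted difference on the log2 scale was 0.93 ± 0.18 (SE, adjusted p = 0.027 in edgeR). Rrm1 (chromosome 7, 109590208 to 109618285, plus strand) stood at 27.4, 31.2 and 31.1 CPM in the normal diet libraries and at 40.03, 47.1 and 39.1 CPM in the high fat libraries. Again the diets did not overlap, and the fitted difference was 0.49 ± 0.11 (SE, adjusted p = 0.031 in edgeR). Both subunits thus kept a raised level in high fat library 3, in which most other replication genes did not. Leaving out any 1 library other than high fat library 3 ended both calls, with adjusted p up to 0.12 for Rrm2 and 0.13 for Rrm1, and so did a replicate block (0.067 and 0.068) and an acinar marker covariate (0.15 and 0.16). In 4 of these fits no locus of any kind passed. The lowest edgeR adjusted p was 0.087, 0.055 and 0.083 without normal diet libraries 1, 2 and 3, and 0.095 with the covariate. Rrm1 also lost its call with library totals or cyclic loess scaling (0.077 and 0.073), while its fitted difference stayed at 0.29 or more, and that of Rrm2 at 0.72 or more, in every alternative run.

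The other enzymes of nucleotide supply did not pass. Tyms, thymidylate synthase, had 7.33, 7.56 and 8.51 CPM in the normal diet libraries and 9.20, 11.6 and 8.24 CPM in the high fat libraries (log2 fold change 0.31, adjusted p = 0.20). Tk1, the S phase thymidine kinase, had 1.64, 1.24 and 1.13 against 1.45, 1.94 and 0.80 CPM, with its highest and its lowest value both on the high fat diet. The 10 further nucleotide supply genes tested had a median log2 fold change of 0.22. Rrm2b, the reductase subunit used outside S phase, went from 92.7 ± 2.5 to 107 ± 14 CPM and did not pass (adjusted p = 0.20).

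**Figure D2:**
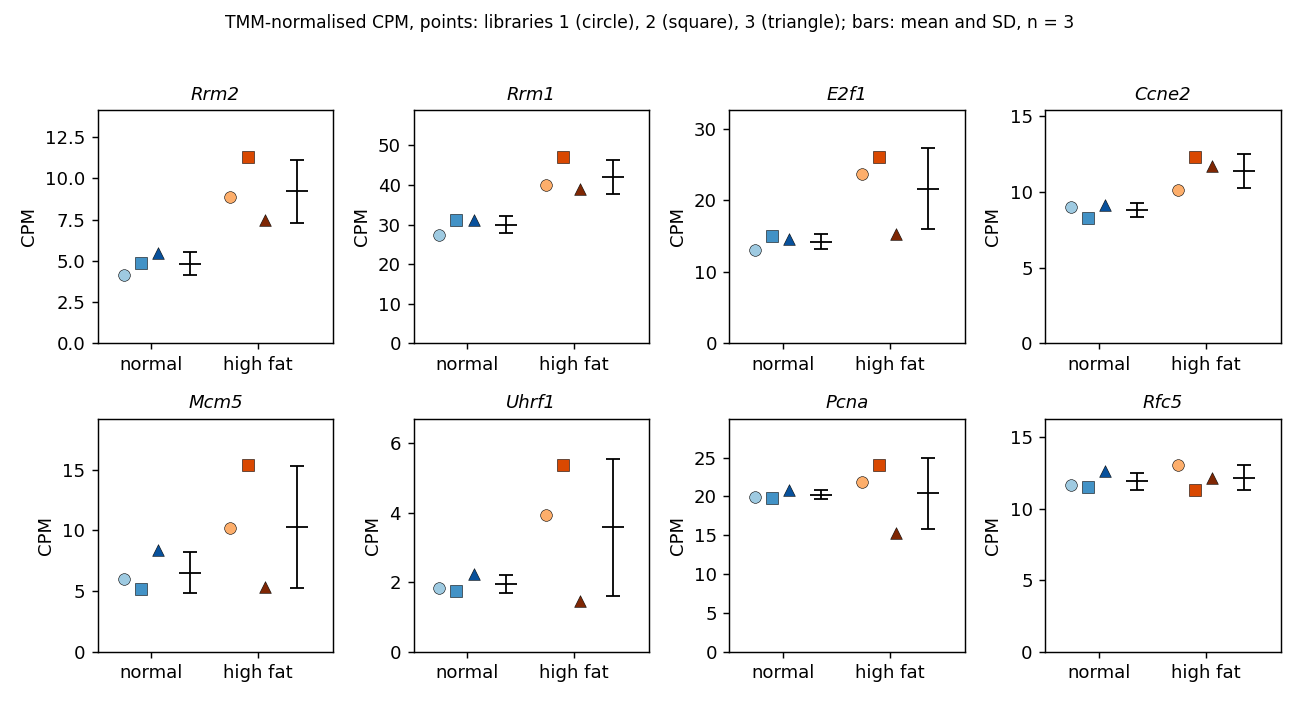
TMM-normalised CPM (y axis, from 0) of 8 genes in each library of the normal and the high fat diet, with the mean and SD of 3 libraries as bars. Rrm2, Rrm1, E2f1 and Ccne2 show no overlap between diets, Mcm5 and Uhrf1 are high in high fat libraries 1 and 2 (Uhrf1 at 3.93 and 5.36 CPM) and within or below the normal range in high fat library 3, and Pcna and Rfc5 have similar means.

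The origin licensing genes had their highest values in high fat library 2 without passing the test. Cdc6, which helps load the MCM ring, stood at 1.37, 1.07 and 1.65 CPM under the normal diet and at 1.93, 4.02 and 1.37 CPM under the high fat diet (log2 fold change 0.83, SE 0.37, adjusted p = 0.16). High fat library 2 held 2.93 times the level of high fat library 3, and the latter lay within the normal diet range. Gmnn, whose product geminin blocks relicensing by binding CDT1, was higher in all 3 high fat libraries (6.61, 7.87 and 6.75 CPM) than in any normal diet library (6.32, 5.52 and 5.72 CPM), with a log2 fold change of 0.27 that did not pass (adjusted p = 0.19). Cdt1 itself had 0.21 (adjusted p = 0.47). Its locus holds 7340 exonic bases, 2.34 times those of the gene in the reference, so part of its count may come from outside the gene.

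The MCM ring is made of 1 copy of each of its subunits, and the fitted differences of their RNAs ran from 0.005 to 0.66; differences among subunits were not tested. Mcm5 stood at 5.96, 5.21 and 8.40 CPM in normal diet libraries and at 10.2, 15.4 and 5.34 CPM in high fat libraries, a log2 fold change of 0.66 (SE 0.34, adjusted p = 0.22). High fat libraries 1 and 2 exceeded every normal diet library and high fat library 3 did not. Mcm3 showed the same order of high fat libraries at 6.08, 8.92 and 3.81 CPM against 4.28, 3.92 and 5.04 CPM (0.50, adjusted p = 0.24). Mcm4 varied least, at 14.1, 13.9 and 14.4 CPM in the normal diet libraries and 16.7, 18.5 and 16.1 CPM in the high fat libraries, with no overlap and a log2 fold change of 0.27 that did not pass (SE 0.10, adjusted p = 0.11). Mcm6 had 22.5, 22.4 and 29.4 CPM against 26.5, 34.8 and 24.8 CPM, with overlap (0.21, SE 0.16, adjusted p = 0.39). For Mcm7 the means were 10.04 ± 0.40 and 10.1 ± 1.2 CPM, and the fitted 0.005 (SE 0.13, adjusted p = 0.98) changed sign between alternatives. The Mcm2 locus had 0.29 (adjusted p = 0.46), with 2.56 times the gene's exonic bases, of which 48.2% are shared with another locus. Per kilobase of locus exons, Mcm6 was the most abundant subunit at 6.12 CPM per kilobase over all libraries, followed by Mcm4 at 4.31, Mcm7 at 4.20, Mcm5 at 2.40, Mcm3 at 1.85 and Mcm2 at 1.11.

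Of the genes that turn the loaded ring into an active helicase, Mcm10 had 1.00, 1.00 and 1.40 CPM in normal diet libraries and 1.76, 2.98 and 1.07 CPM in high fat libraries (0.76, SE 0.34, adjusted p = 0.16). Gins1, a GINS subunit, had 0.56 (adjusted p = 0.27), with 1.08, 1.69 and 0.62 CPM under the high fat diet against 0.80, 0.67 and 0.81 CPM. In high fat library 3, Mcm10 lay within the normal diet range and Gins1 below it. The loci of Gins2 and Cdc45 went the other way. Gins2 stood at 17.5, 15.0 and 13.0 CPM under the normal diet and 10.2, 7.95 and 6.28 CPM under the high fat diet, and its locus fell by 0.90 on the log2 scale (SE 0.19, edgeR adjusted p = 0.030). Cdc45 had 38.4, 29.6 and 30.6 against 25.7, 25.0 and 27.2 CPM (log2 fold change -0.34, adjusted p = 0.089). These values cannot be credited to the genes. The Gins2 locus (chromosome 8, 123075050 to 123114081, minus strand of mm9) holds 32260 exonic bases where the gene holds 4097, and that of Cdc45 holds 32500 where the gene holds 3506. The fall of the Gins2 locus did not pass with the replicate block (adjusted p = 0.053), with the acinar covariate (0.16) or without any 1 of normal diet libraries 1 to 3 and high fat libraries 1 and 2. With the covariate or without a normal diet library, no locus of any kind passed.

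Origin genes outside the 35 were taken from a list of 19, all of which were tested. In this list 2 rose and 0 fell (5.95% and 4.86% over all loci), and 17 had a log2 fold change above 0, with a median of 0.24. Orc2 and Orc5, subunits of the origin recognition complex, rose from 56.8 ± 2.7 to 72.0 ± 4.6 CPM (0.34, edgeR adjusted p = 0.041) and from 97.9 ± 6.5 to 121 ± 5.7 CPM (0.31, adjusted p = 0.049). Neither gene dropped in high fat library 3, where Orc2 had 75.5 and Orc5 125 CPM, their highest values.

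The synthesis machinery held the most abundant member and several of the flattest. Pcna, the sliding clamp that tethers polymerases, was the highest of the 35 genes per kilobase, at 16.1 CPM per kilobase. It stood at 20.0, 19.8 and 20.9 CPM in normal diet and 21.9, 24.0 and 15.3 CPM in high fat libraries (0.01, SE 0.16, adjusted p = 0.97). The high fat libraries thus lay on both sides of the normal range. The clamp loader genes Rfc3, Rfc4 and Rfc5 had log2 fold changes of 0.06, 0.23 and 0.03, with SEs of 0.11 to 0.12 (adjusted p = 0.75, 0.24 and 0.88). Rfc5 had 11.7, 11.5 and 12.6 CPM against 13.0, 11.3 and 12.2 CPM, and Rfc4 did not overlap, at 4.76, 4.74 and 4.93 against 5.58, 5.97 and 5.35 CPM. Prim1, the primase subunit that makes RNA primers, was second per kilobase at 9.63 and went from 13.5, 13.3 and 15.3 CPM to 16.2, 17.1 and 17.2 CPM without overlap (0.26, SE 0.11, adjusted p = 0.13). Pola1, the catalytic subunit of the polymerase that extends those primers, had no overlap either, at 22.1, 18.9 and 21.6 against 24.9, 29.2 and 23.6 CPM (0.31, SE 0.12, adjusted p = 0.11). Pole, the leading strand polymerase, had 2.45, 4.75 and 1.48 CPM under the high fat diet against 2.03, 1.67 and 2.52 CPM (0.47, SE 0.37, adjusted p = 0.41), and without high fat library 2 its log2 fold change was -0.07. The genes for joining Okazaki fragments, Lig1 and Fen1, had 0.24 and 0.19 (adjusted p = 0.36 and 0.49). Fen1 is counted in a locus that also matches Myrf and has 6.24 times its exonic bases.

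Among 25 other polymerase and fork genes tested, 1 rose and 0 fell (5.95% and 4.86% over all loci), with a median log2 fold change of 0.15. Rpa1, the large subunit of the complex that coats single-stranded DNA, rose from 126 ± 5.9 to 161 ± 7.6 CPM (0.35 ± 0.08, edgeR adjusted p = 0.033). Its partners Rpa2 and Rpa3 had 0.27 and 0.24 and did not pass (adjusted p = 0.28 and 0.19).

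E2f1, an activating E2F factor, came closest to the threshold among the genes that did not pass. It stood at 13.0, 15.0 and 14.6 CPM in the normal diet libraries and at 23.6, 26.0 and 15.2 CPM in the high fat libraries. High fat library 3 was just above the highest normal diet library, at 15.0 CPM. The fitted difference was 0.61 ± 0.19 (SE, edgeR adjusted p = 0.067), and DESeq2 gave 0.62 with an adjusted p of 0.015. E2f2, another activator, had 0.21 (adjusted p = 0.37). The repressors of S phase genes E2f7 and E2f8 were the lowest of the 35 per kilobase, at 0.093 and 0.090 CPM per kilobase, with the latter 178 times below Pcna. E2f7 had 0.38 (adjusted p = 0.34). E2f8 stood at 0.23, 0.26 and 0.23 CPM under normal feeding and at 0.38, 0.74 and 0.26 CPM under high fat feeding (0.90, SE 0.38, adjusted p = 0.14). The partners of CDK2 at S phase entry, Ccne1 and Ccne2, had 0.30 and 0.37 (adjusted p = 0.25 and 0.079). Ccne2 had 10.1, 12.3 and 11.7 CPM under high fat feeding against 8.98, 8.27 and 9.11 CPM, with no overlap, in a locus of which 53.9% is shared with another.

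Of 30 further genes of E2F, RB and G1/S control that were tested, 2 rose and 0 fell (5.95% and 4.86% over all loci), with a median of 0.17. Cdc25a, the phosphatase that activates CDK2, rose from 40.5 ± 1.6 to 55.4 ± 1.9 CPM (0.45 ± 0.08, edgeR adjusted p = 0.023), with the 3 high fat libraries close together at 53.9, 57.5 and 54.8 CPM. Lin54, the DNA-binding subunit of the DREAM and MuvB complexes, rose from 33.4 ± 1.5 to 42.6 ± 2.1 CPM (0.35, adjusted p = 0.041). Ccna2, cyclin A, had 0.94 and an adjusted p of 0.052.

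Chromatin is rebuilt behind the fork. Chaf1a and Chaf1b, subunits of the histone chaperone CAF-1, had 0.12 and 0.51 (adjusted p = 0.59 and 0.25). Uhrf1, which guides DNMT1 to newly copied DNA, stood at 1.82, 1.75 and 2.23 CPM under normal feeding and 3.93, 5.36 and 1.46 CPM under high fat feeding (0.88, SE 0.39, adjusted p = 0.16). High fat library 3 was the lowest of all 6 libraries and high fat library 2 was 3.68 times higher. None of 12 other chromatin assembly genes passed in either direction, with a median of 0.25. The lowest adjusted p-values were those of Rbbp4, a histone-binding CAF-1 partner, at 0.064 and of Slbp, which binds histone mRNA, at 0.077. Of 70 histone cluster genes in the reference annotation, only Hist1h2be and Hist1h2bp could be linked to a locus, and neither passed (adjusted p = 0.77 and 0.67). Transcripts of 1 exon were not linked to any gene. The Hist1h2be locus holds 12754 exonic bases, 2.87 times those of the gene, so part of its count may come from outside the gene.

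The genes of these lists outside the 35 numbered 96 tested, of which 6 were called higher and 0 lower and 82 had a log2 fold change above 0, at a median of 0.21. The 6 make up a share near the 5.95% of all loci called higher, so their number does not set these lists apart. Of all loci, 4.86% were called lower and 45.5% had a log2 fold change above 0. Among the 6 called, Orc2, Orc5, Rpa1, Cdc25a and Lin54 each lost their call with library totals, with cyclic loess, with the replicate block, with the acinar covariate and without any 1 library other than high fat library 3. With the covariate or without a normal diet library, no locus of any kind passed.

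The 3 high fat libraries differed more in these genes than in most. High fat library 2 was the highest of all 6 libraries for 30 of the 35 genes, as it was for 17.7% of all loci. It lay above every normal diet library for 32 genes, high fat library 1 for 25 and high fat library 3 for 10, where the shares over all loci were 35.3%, 34.1% and 34.3%. High fat library 3 lay below every normal diet library for 14 genes. The share of all loci that did so was not counted, so these 14 cannot be read as a trait of the group. The median over the 35 genes of the log2 ratio to the normal diet mean was 0.24, 0.51 and -0.05 in high fat libraries 1, 2 and 3. The coefficient of variation between libraries had a median of 8.06% in normal diet and 22.2% in high fat islets, against 10.9% and 15.1% over all loci. In 11 genes high fat library 2 was at least 2 times high fat library 3, a ratio reached by 6.18% of all loci. These were Uhrf1, Pole, Cdc6, Mcm5, E2f8, Mcm10, Gins1, Chaf1b, Tk1, Mcm3 and Mcm2, whereas Prim1, Ccne1, Ccne2 and Rfc5 had ratios from 0.93 to 1.05.

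**Figure D3:**
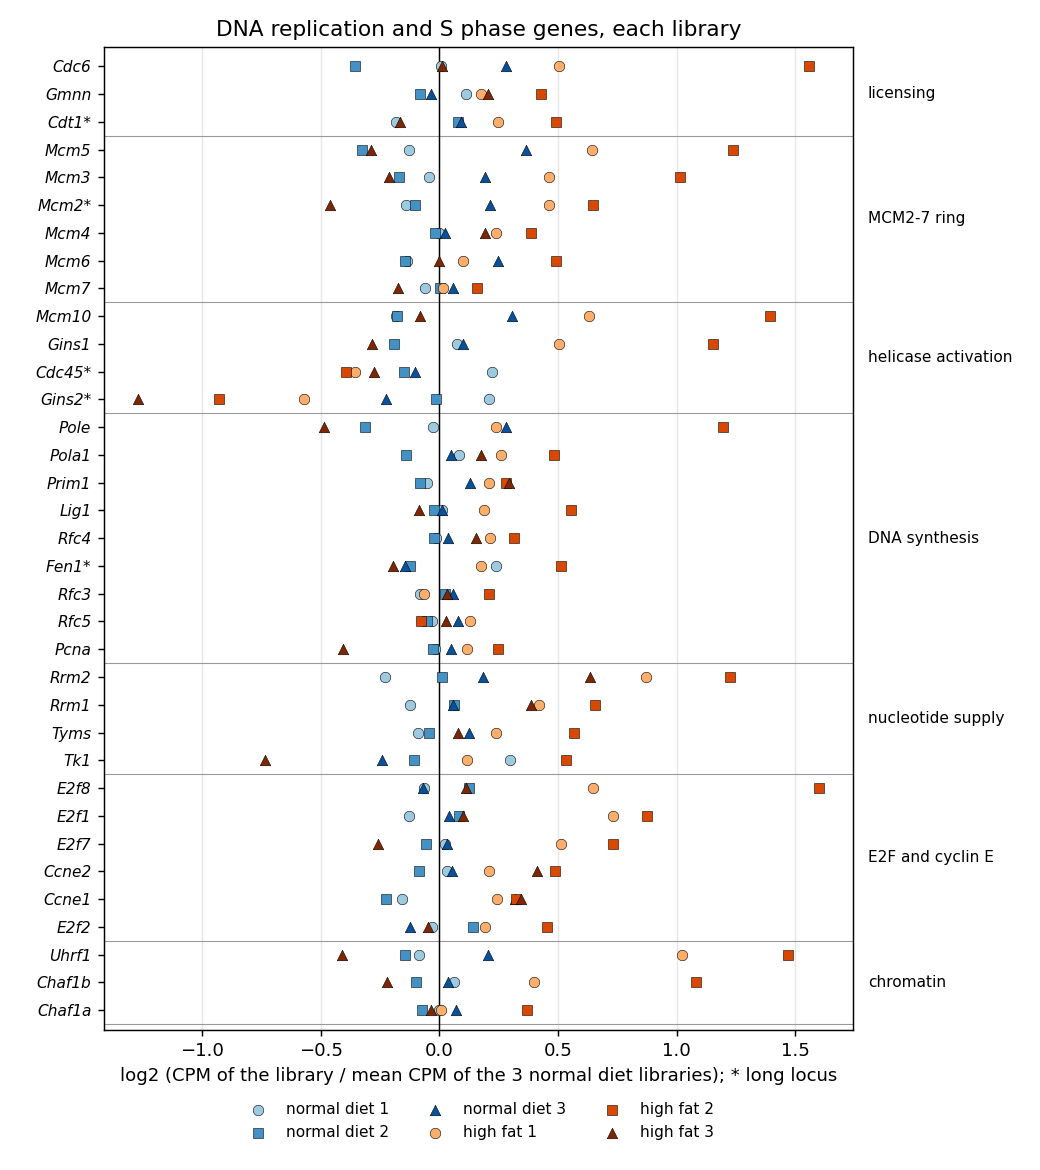
Level of each of the 35 genes in each library as log2 of its CPM over the mean of the 3 normal diet libraries (x axis), grouped by role, with asterisks on the 5 genes in long loci. High fat library 2 (red squares) is rightmost for 30 genes. High fat library 3 (dark triangles) lies among or left of the normal diet libraries for most genes. It lies right of all of them for 10, which are Mcm4, Rrm1, Rrm2, E2f1, Ccne1, Ccne2, Gmnn, Rfc4, Pola1 and Prim1.

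Without high fat library 3 the test called 14 of the 35 genes higher and 2 lower, where 12.4% and 7.87% of all loci were called. The 2 lower were the loci of Gins2 and Cdc45, whose values cannot be credited to the genes. The 14 were Mcm2, Mcm3, Mcm4, Mcm5, Mcm10, Rrm1, Rrm2, E2f1, E2f8, Cdc6, Gins1, Pola1, Chaf1b and Uhrf1, with log2 fold changes from 0.32 for Mcm4 to 1.27 for Uhrf1. Mcm2 is counted in a locus with 2.56 times its exonic bases, 48.2% of them shared. Without any other single library the edgeR test called 0, with 4 to 9 of the 35 at an unadjusted p under 0.05. In those fits 5500 to 7029 of the 24558 to 25280 loci tested were under 0.05 as well. The share of the 35 was above that of all loci in none of them. DESeq2 with all 6 libraries called 4 of the 35 higher and 1 lower, where it called 2244 and 1824 of the 23983 loci. The median log2 fold change of the 35 was 0.38 without high fat library 3 and 0.17 without high fat library 2.

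Mitosis genes, which act after replication, were measured in the same fit for comparison. Of 36 tested, 15 rose (41.7%, against 5.95% of all loci) and 0 fell (against 4.86%), with a median log2 fold change of 0.89. Their median log2 ratio to the normal diet mean was 0.68, 1.34 and 0.36 in high fat libraries 1, 2 and 3, so that high fat library 2 led here as well. In high fat library 3, however, 30 of the 36 mitosis genes lay above every normal diet library. The same held for 10 of the 35 replication genes and 34.3% of all loci. Ccnb1, cyclin B, went from 1.12 ± 0.075 to 2.54 ± 0.88 CPM with 2.01 CPM in high fat library 3, and passed with an edgeR adjusted p of 0.029. Bub1b, a spindle checkpoint kinase, Smc4, a condensin subunit, and Prc1, which bundles spindle microtubules, rose by 1.11, 0.44 and 0.92 on the log2 scale (adjusted p = 0.026, 0.026 and 0.030). The difference between both lists was not tested, and both were chosen with earlier results of these libraries known. The 15 calls fell to 0 with the replicate block or the acinar covariate, or without any 1 library other than high fat library 3. Without high fat library 3, 32 mitosis genes passed, where 12.4% of all loci were called higher. The mitosis calls numbered 6 with library totals, 4 with cyclic loess and 28 in DESeq2. Of all 23983 loci, 300, 249 and 2244 were called higher in these fits. With the covariate or without a normal diet library, no locus of any kind passed.

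**Figure D4:**
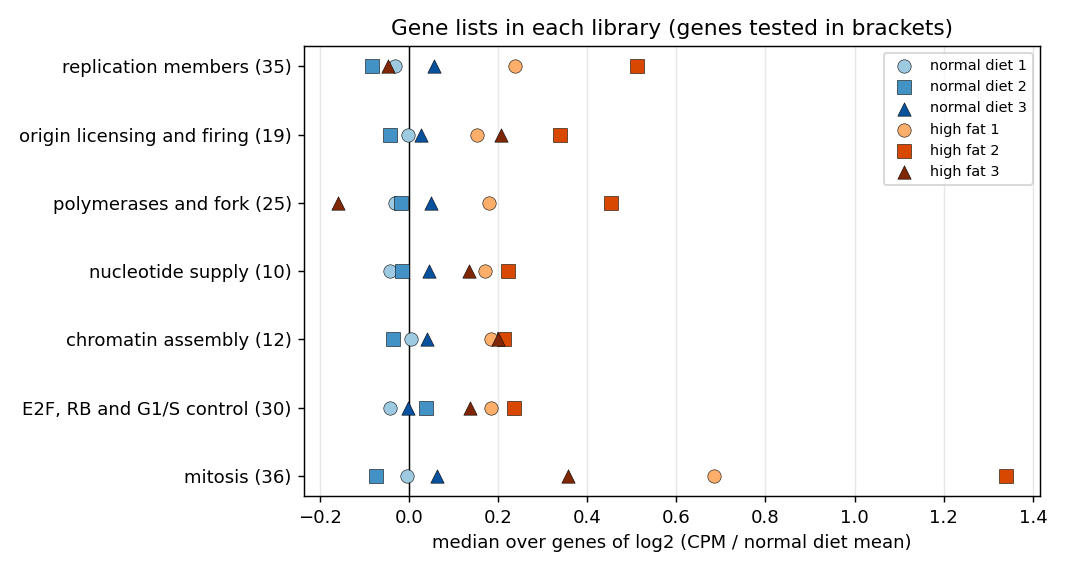
Median over the genes of each list of log2 CPM over the normal diet mean (x axis) in each library. High fat library 3 (dark triangles) is at -0.05 for the 35 replication genes and at 0.36 for the mitosis genes, and high fat library 2 (red squares) is the highest library in every list shown.

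Other cell types were followed by their markers, since dividing cells need not be beta cells. For comparison, 5.95% of all loci were called higher and 4.86% lower, and 45.5% had a log2 fold change above 0. The summed level of 21 acinar markers ran from 3739 to 7214 CPM in the normal diet libraries and was 5471, 11719 and 9153 CPM in high fat libraries 1, 2 and 3, so it too was highest in high fat library 2. Of 20 tested 1 rose, the trypsin gene Try5, and 19 had a log2 fold change above 0, at a median of 0.59. With the mean acinar level as a covariate the test called 0 of the 35 genes and 0 loci of any kind. In that fit 4 of the 35, and 4644 of all 23983 loci, had an unadjusted p under 0.05. The median log2 fold change of the replication genes was 0.24. The 11 endothelial markers summed to 496 to 571 CPM on the normal diet and to 500, 614 and 583 CPM, with 0 of 11 past the test. The 12 stromal markers summed to 371 to 471 and to 446, 589 and 525 CPM, of which Rgs5 and Acta2 rose and Thy1 fell. That sum was carried by Rgs5, a pericyte gene, and only 3 of the 12 had a log2 fold change above 0, at a median of -0.48. The 9 macrophage markers had 183 to 196 CPM on the normal diet and 164, 176 and 119 CPM, with the Csf1r locus lower. That locus holds 48939 exonic bases where the gene holds 5774, so its fall cannot be credited to the gene. In high fat library 3, C1qa had 56.1 CPM, against 114 to 119 CPM on the normal diet, while Adgre1 and Fcgr1 had their highest values there. Of the 9 macrophage markers, 1 had a log2 fold change above 0, at a median of -0.26. The 11 lymphocyte markers had at most 13.1 CPM together in any library. The 7 duct markers summed to 248 to 262 and to 291, 312 and 263 CPM, with 0 of 7 past the test. Most of that sum was Epcam, at 202, 216 and 222 CPM on the normal diet and 247, 249 and 211 CPM on the high fat diet. Only 3 of the 7 duct markers had a log2 fold change above 0, at a median of -0.011. The 7 Schwann cell markers summed to 27.2 to 30.8 and to 17.5, 25.9 and 24.2 CPM, with Sox10, Ngfr and Gfap lower. Of 7 beta-cell markers, Iapp, G6pc2 and Pcsk1 rose and all 7 had a log2 fold change above 0, at a median of 0.32 that turned to -0.089 with cyclic loess, where 0 of 7 passed. Of 5 alpha-cell markers, Irx1, Irx2 and Slc7a2 fell, and the median of the 5 was -0.53. All 5 were lower in every high fat library than in any normal diet library, as were 20.4% of all loci. Irx1 is counted in a locus with 5.23 times its exonic bases, so part of its count may come from outside the gene. Neither list had a call left with the acinar covariate or without normal diet library 1, 2 or 3, fits in which no locus of any kind passed. The alpha-cell list had none without high fat library 1 or 2 or with the replicate block either. The part of these cells in the levels of the replication genes was not tested.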

How the data were processed

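The values used are raw counts of reads for each assembled locus, as deposited by the authors for 6 libraries. The labels' protocols describe removal of ribosomal RNA and a stranded kit without poly(A) selection. The submitters' processing notes name TopHat2 (2.0.8), Cufflinks (2.1.1), HTSeq (0.5.4p3), edgeR and build mm9. Whether counting used strand is not given in the sources used here, so reads of antisense or overlapping genes may be included. A deposited table of scaled counts was not used.

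The transcript file names no genes. A gene was linked to a locus when the ordered lengths of introns and inner exons of a transcript equalled those of a GENCODE M21 transcript on the same chromosome and strand (for transcripts of 2 exons, the intron and both ends within 40 bases). No coordinates were converted. The locus of 5 genes (Mcm2, Cdc45, Cdt1, Gins2 and Fen1) held over 2 times the exonic bases of the gene.

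Loci kept by filterByExpr (23983) were scaled by TMM, and diet was tested two-sided with edgeR 4.0.16 (quasi-likelihood) in R 4.3.3. Adjusted p-values are Benjamini-Hochberg over all these loci, with a threshold of 0.05. An SE is the size of the log2 fold change over the root of its F statistic. Alternatives used other scalings and filters, a replicate block, an acinar covariate, left-out libraries, DESeq2 1.42.0 and limma 3.58.1. All 35 genes are named. Of the other replication and mitosis lists, up to 4 genes past the threshold with the lowest adjusted p are named, or up to 2 where none passed. A result of these lists is not reported here. Ccna2, Rrm2b, Rpa2 and Rpa3 were named after their values were seen. The genes and lists were chosen with earlier results of these data known.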

Additional observations from a re-analysis of the deposited data

How the results depend on the processing

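Of the 35 genes, Rrm1, Rrm2 and the Gins2 locus kept their direction in every alternative run. Main counts were 2 genes higher and 1 lower, 1426 and 1165 loci, and 21 and 0 genes of the other lists (the replication lists outside the 35, and mitosis). Scaling by RLE or dropping the filter kept every count within 1.5 times. With library totals they were 1 and 2, 300 and 3039, and 6 and 3, and the median of all loci moved from -0.05 to -0.25 while that of the 35 genes moved from 0.29 to 0.079. With cyclic loess they were 1 and 1, 249 and 232, and 5 and 0. DESeq2 gave 4 and 1, 2244 and 1824, and 46 and 1. With the acinar covariate all were 0, with 4644 loci at an unadjusted p under 0.05. Leaving out 1 library at a time gave 0 to 14 higher and 0 to 2 lower of the 35, 0 to 3075 and 0 to 1960 loci, and 0 to 58 higher genes of the other lists, with the high ends without high fat library 3. Skipping genes with over 10% shared bases (28 kept) or, chosen after seeing the data, those in long loci (30 kept) left 2 higher and 0 lower. The cause of these moves was not tested.

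Signs turned only for genes that did not pass. With library totals, log2 fold changes were -0.20 for Mcm7, -0.20 for Pcna, -0.16 for Tk1, -0.14 for Rfc3, -0.17 for Rfc5, -0.082 for Chaf1a and -0.021 for Fen1. Mcm7 had -0.0039 without the filter and -0.043 with the acinar covariate, Pcna -0.069 with cyclic loess and -0.0061 with the covariate, and Rfc3 -0.040 with the covariate. Leaving out 1 library gave -0.069 to 0.093 for Mcm7, -0.11 to 0.19 for Pcna, -0.24 to 0.34 for Tk1, -0.0063 to 0.13 for Rfc3, -0.016 to 0.087 for Rfc5, -0.074 to 0.79 for Pole and -0.0047 to 0.20 for Chaf1a.

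Same-numbered libraries of both diets are not said to be paired, and their deviations from the group means had correlations of -0.075, 0.075 and -0.014, and not every library correlated best with its own number. With the replicate block the counts were 0 and 0 of the 35, 54 and 20 loci, and 0 and 0 of the other lists. An unadjusted p under 0.05 was reached by 7 of the 35 and by 6767 of all 23983 loci with the block. In that fit Mcm7 had -0.00038, Pcna -0.013 and Tk1 -0.0079. Depth did not keep any of the 35 out of the test. The scatter among 3 libraries limits what can pass.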
